A study of Mus musculus with 6 samples.

Results

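Kinesins are motor proteins that use ATP to move along microtubules. They were chosen here as every probe set that the platform annotation maps to 1 gene symbol beginning with Kif. The rule gave 108 of the 45037 probe sets that are not array controls, and these stand for 43 genes. By their known roles, 13 of the genes were placed in a mitotic list, 15 in a transport list and 13 in a list of other roles, and 2 encode proteins that bind kinesins without being motors. Expression was measured in whole spleens of Balb/c mice aged 6 to 8 weeks. Perfluorooctane sulfonate (PFOS), a fluorinated surfactant that persists in tissue, was given into the stomach of 3 mice at a daily dose of 10 mg per kg over 3 weeks, and 3 control mice were untreated. No genetic change is given for either group. Each spleen was hybridized to 1 Affymetrix Mouse430_2 array, and the values are log2 expression from RMA, a method that corrects background, equalizes the arrays and summarizes the probes of a probe set.

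Dividing cells use mitotic kinesins to build the spindle, to move chromosomes and to complete cytokinesis, and transcripts of these motors are made mainly late in the cell cycle. Transport kinesins carry vesicles, organelles and protein complexes towards microtubule ends in dividing and resting cells alike. The mouse spleen holds both kinds of cell, since red cell precursors and activated lymphocytes divide there beside resting lymphocytes and macrophages.

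Before the results, 3 facts of the arrays bear on all of them. Correlation over the 13101 genes tested was at least 0.9985 within a group and at most 0.9698 between groups, so no array stood apart from its own group. The standard errors and p-values below rest on this small spread between arrays. Whether it measures the spread between separately handled mice was not tested. The spleen label was borne out by its lymphocyte and macrophage markers. Cd79a of B cells averaged 8.76 in PFOS and 8.14 in control spleens, Cd3d of T cells 10.49 and 9.81, and Spic of red pulp macrophages 9.83 and 9.26. Control spleens also held bright liver transcripts. Alb averaged 11.03 there and 5.87 in PFOS spleens, and all 9 tested liver genes were lower in PFOS spleens. The source of the liver signal was not tested. The label of female sex was not borne out. The brightest probe sets of the Y-linked genes Eif2s3y and Kdm5d lay at 9.62 to 9.91 and 7.54 to 7.94 on the 6 arrays, while the highest value of any Xist probe set, the transcript of the inactive X chromosome, was 5.86. The labels name the arrays of a group as biological replicates and give no batch.

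Promoter sequences are shown first because most windows of the mitotic list hold a short element that was not used to choose it. The CHR, or cell cycle genes homology region, is an element of genes transcribed in G2 and M phase, where it is bound by the MuvB complex, often with a CCAAT box upstream. RefSeq promoter windows of build GRCm38.p6, each of 250 bases before and 50 after an annotated start, were available for 35 of the 43 genes, in 39 windows. Both strands were searched for the CHR, spelled TTTGAA or alternatively TTCGAA, for the CCAAT box, spelled by its name, and for E2F sites, spelled TTTCGCGC, TTTGGCGC or TTTCCCGC, and no matches of different motifs overlapped. A CHR match was found in 10 of 12 mitotic windows, in 1 of 12 transport windows, in 4 of 13 windows of the list of other roles and in 19.2% of all 32851 windows. CHR and CCAAT matches occurred together in 7 of 12 mitotic windows, in 0 of 12 transport windows, in 4 of 13 windows of other roles and in 7.5% of all windows. The element is thus not particular to the mitotic list. A match is a description of the letters and not of a bound site. The mitotic genes whose stretch from 80 bases before to 10 after the start holds a CHR match are printed below, 5′ to 3′ on the gene's strand, with every motif match in capitals (a CHR match on the other strand reads TTCAAA, and a CCAAT match there reads ATTGG; the capitals in Kif15 are an E2F match followed directly by a CHR match).
Kif11, chr19:37376302-37376391, plus strand: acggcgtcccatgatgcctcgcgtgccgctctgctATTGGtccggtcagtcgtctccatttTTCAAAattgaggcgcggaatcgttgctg
Kif22, chr7:127042411-127042500, minus strand: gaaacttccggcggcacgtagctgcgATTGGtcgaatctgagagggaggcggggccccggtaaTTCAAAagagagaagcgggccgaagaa
Kif18b, chr11:102925115-102925204, minus strand: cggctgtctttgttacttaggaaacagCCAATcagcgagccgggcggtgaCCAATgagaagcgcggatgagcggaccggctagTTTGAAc
Kif23, chr9:61946790-61946879, minus strand: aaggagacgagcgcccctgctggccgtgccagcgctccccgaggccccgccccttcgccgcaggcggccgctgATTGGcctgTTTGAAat
Kifc1, chr17:33890624-33890713, minus strand: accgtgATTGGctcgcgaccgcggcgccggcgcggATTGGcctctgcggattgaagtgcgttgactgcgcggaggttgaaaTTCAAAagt
Kif15, chr9:122951001-122951090, plus strand: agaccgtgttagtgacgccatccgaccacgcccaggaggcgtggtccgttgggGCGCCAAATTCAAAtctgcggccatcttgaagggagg

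The same stretch is given for Kif3a, Kif3b and Kif3c, the motor subunits of heterotrimeric kinesin-2, as transport promoters with no CHR match. Kif17 of the same family has no match of any of the motifs in its window and is not printed.
Kif3a, chr11:53567289-53567378, plus strand: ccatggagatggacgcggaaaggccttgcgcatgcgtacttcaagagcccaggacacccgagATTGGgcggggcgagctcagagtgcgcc
Kif3b, chr2:153291336-153291425, plus strand: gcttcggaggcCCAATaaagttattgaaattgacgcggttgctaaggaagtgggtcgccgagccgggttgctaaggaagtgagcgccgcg
Kif3c, chr12:3365052-3365141, plus strand: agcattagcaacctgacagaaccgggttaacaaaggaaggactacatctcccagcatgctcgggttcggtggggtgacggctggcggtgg

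In Kif11, Kif22, Kif18b, Kif23 and Kifc1 a CCAAT match lies upstream of the CHR match. Kif15 has the E2F match in place of CCAAT in this stretch. The other mitotic genes with a CHR match in their window were Kif2c, Kif4, Kif14 and Kif20b, and the 2 without were Kif18a, which has an E2F match, and Kif2b. No window was available for Kif20a. In the list of other roles the CHR matches lay in Kif24, Kif26b, Kif27 and Kifc5b, each with a CCAAT match.

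**Figure D1:**
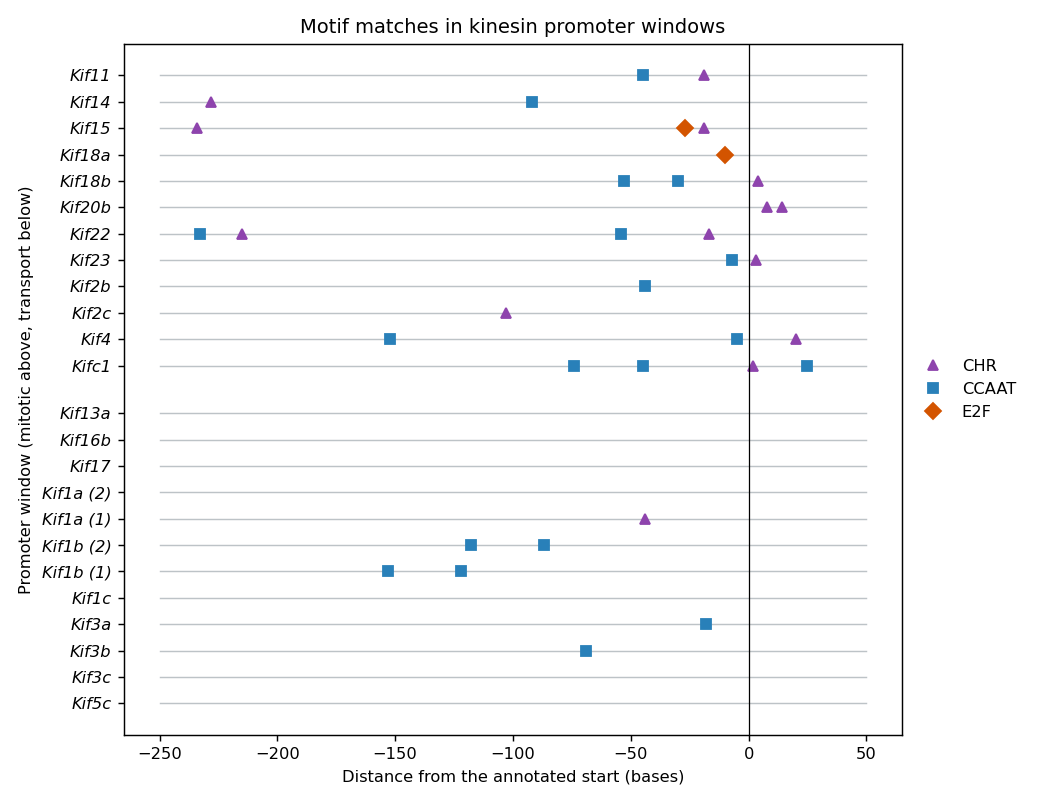
Positions of CHR, CCAAT and E2F matches in the promoter windows of mitotic (above) and transport (below) kinesins, as bases from the annotated start on the gene's own strand; each grey line is 1 window, and a number marks the windows of a gene with more than 1. CHR matches occur in 10 of 12 mitotic windows and in 1 of 12 transport windows.

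The comparison of PFOS with control spleens asks which transcripts differ after exposure. One probe set stood for each gene, and 36 of the 43 kinesin genes were tested, their mean over the 6 arrays having passed a floor at a log2 value of 5.62. A gene was called at a limma p adjusted over all 13101 genes under 0.05, which called 66.6% of all genes, 26% lower and 40.6% higher. Against that background, 10 of the 11 mitotic kinesins tested were called lower and 0 higher. Of the 14 transport kinesins tested, 2 were called lower and 3 higher. The median log2 change was -1.21 over the mitotic genes, or 2.31-fold lower, 0.05 over the transport genes and 0.05 over all genes. At least 2-fold lower were 8 of the 11 mitotic genes, 0 of the 14 transport genes and 2.92% of all genes, and at least 2-fold higher were 0 kinesins and 0.0687% of all genes. The arrays of the groups did not overlap, with PFOS lower, in 10 mitotic genes, 2 transport genes and 27.8% of all genes, and with PFOS higher in 0 mitotic genes, 4 transport genes and 43.2% of all genes. In bulk spleen, fewer cells of a type and less RNA per cell cannot be told apart.

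**Figure D2:**
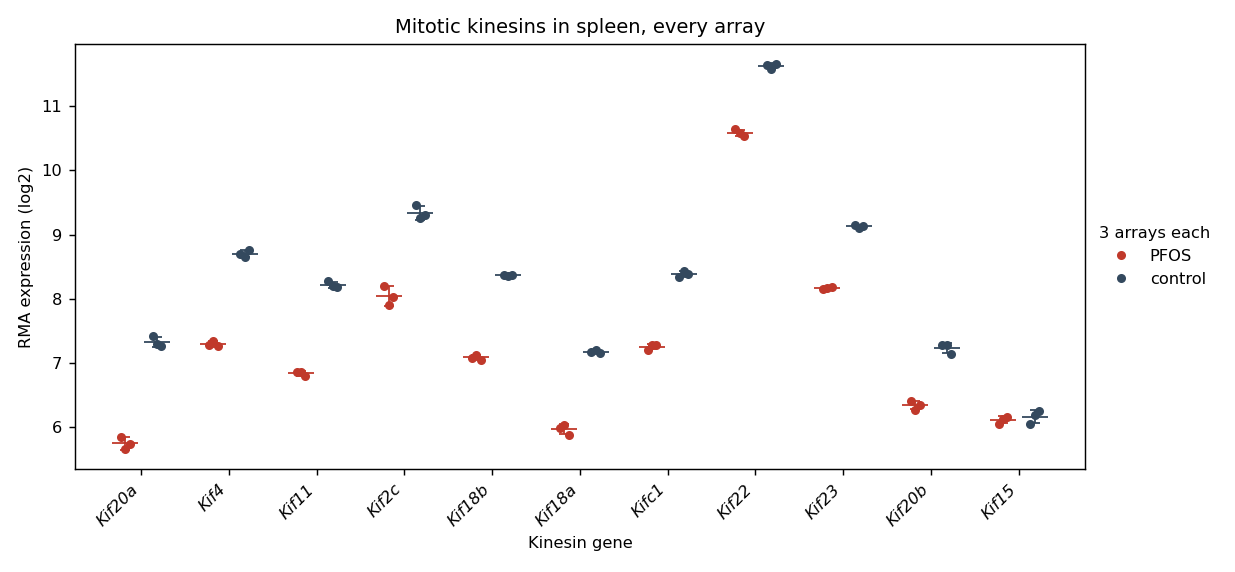
RMA expression (log2) of the 11 tested mitotic kinesins on every array, PFOS spleens left of control spleens for each gene; points are arrays, and bars give the mean and SD of 3. For every gene but Kif15 the 3 PFOS arrays lie below the 3 control arrays.

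Among the motors that shape the spindle, Kif11 encodes the bipolar motor that pushes the spindle poles apart. Its values were 6.85, 6.86 and 6.79 in PFOS spleens, against 8.27, 8.20 and 8.18 in control spleens. All PFOS arrays were below all control arrays, and the log2 change was -1.38 ± 0.03 (SE, n = 3 each), or 2.61-fold lower (limma adjusted p = 5.84e-08). The other 2 probe sets of Kif11 fell by 1.55 and 0.91 on the log2 scale. Kifc1 encodes the minus-end-directed motor that gathers microtubules at the poles. It stood at 7.20, 7.28 and 7.28 in PFOS spleens, against 8.34, 8.43 and 8.38 in control spleens, a change of -1.13 ± 0.03 (limma adjusted p = 1.45e-07). The groups did not overlap.

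Kif15, which backs up Kif11 in holding the spindle bipolar, was the exception in the mitotic list. Its only probe set gave 6.05, 6.12 and 6.16 in PFOS spleens, against 6.05, 6.19 and 6.25 in control spleens. The groups overlapped, and the change was -0.05 ± 0.05 (limma adjusted p = 0.427). These levels lie not far above the floor of 5.62, and whether this probe set reports the transcript well was not tested.

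Kif2c, Kif18a and Kif18b act on microtubule ends. Kif2c, the depolymerase at centromeres, had values of 8.20, 7.90 and 8.03 in PFOS spleens, against 9.47, 9.26 and 9.31 in control spleens. All PFOS arrays were lower, by -1.30 ± 0.08 (limma adjusted p = 8.14e-06), but its probe sets differed in size. Another probe set changed by -0.62 and 1 by only -0.09 (limma adjusted p = 0.032 over 22434 probe sets), while the last lay under the floor, at 5.38 in PFOS and 5.37 in control spleens. Kif18a damps the movements of chromosomes at the metaphase plate. Its levels were 5.99, 6.03 and 5.88 in PFOS spleens, against 7.17, 7.20 and 7.15 in control spleens, a change of -1.21 ± 0.04 (limma adjusted p = 3.29e-07). Kif18b shortens the astral microtubules. It lay at 7.08, 7.13 and 7.05 in PFOS spleens, against 8.37, 8.36 and 8.37 in control spleens, and its change of -1.28 ± 0.03 had the smallest adjusted p of all kinesins (limma adjusted p = 3.14e-08). Neither gene overlapped between the groups.

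Kif4 and Kif22 are chromokinesins, which bind chromosome arms. Kif4 measured 7.28, 7.34 and 7.27 in PFOS spleens, against 8.70, 8.65 and 8.77 in control spleens, a change of -1.41 ± 0.04 (limma adjusted p = 8.64e-08). For Kif22 the values were 10.64, 10.58 and 10.54 in PFOS spleens, against 11.65, 11.59 and 11.66 in control spleens, a change of -1.04 ± 0.03 (limma adjusted p = 2.74e-07). In both genes every PFOS array was below every control array. The other probe sets of Kif22 averaged 8.50 and 7.76 in control spleens and changed by -1.64 and -0.74. The level of Kif22 and the size of its fall thus depended on the probe set, and its direction did not. Cenpe, the kinesin that links kinetochores to microtubules, has no Kif symbol and is not a member. Its values were 7.94, 7.83 and 7.82 in PFOS spleens, against 9.40, 9.29 and 9.34 in control spleens, a change of -1.48 ± 0.04 (limma adjusted p = 1.46e-07).

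The motors of cytokinesis included the largest and the smallest of the 10 falls. Kif20a carries the chromosomal passenger complex to the central spindle. It had 5.84, 5.65 and 5.74 in PFOS spleens, against 7.41, 7.29 and 7.26 in control spleens, a change of -1.58 ± 0.06 or 2.99-fold lower (limma adjusted p = 4.81e-07). The PFOS values lie close to the floor of 5.62. Kif23, a subunit of centralspindlin, gave 8.15, 8.18 and 8.18 in PFOS spleens, against 9.15, 9.11 and 9.14 in control spleens, a change of -0.96 ± 0.02 (limma adjusted p = 6.44e-08). Kif20b, needed for the final cut between daughter cells, gave 6.40, 6.27 and 6.35 in PFOS spleens, against 7.29, 7.28 and 7.13 in control spleens, a change of -0.89 ± 0.05 or 1.86-fold lower (limma adjusted p = 4.55e-06). None of these 3 genes overlapped between the groups.

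Kif14, a motor of the cleavage furrow, and Kif2b, a depolymerase of early mitosis, had no probe set past the floor. Kif14 averaged 3.63 in PFOS and 3.58 in control spleens, and Kif2b averaged 3.22 and 3.33. No PFOS mean of the 11 tested mitotic genes was under the floor, so none passed through its control values alone. Without any floor, 21 of all 26 mitotic probe sets were called lower, 0 higher and 5 not called, beside 50.8% of all 34945 probe sets called, 21.2% lower and 29.6% higher. For the 54 transport probe sets the counts were 13 lower, 10 higher and 31 not called. Past the floor, 16 of 17 mitotic probe sets were called lower and 0 higher, and of 38 transport probe sets 9 were called lower and 7 higher, beside 63.9% of all 22434 probe sets called, 27.4% lower and 36.4% higher.

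**Figure D3:**
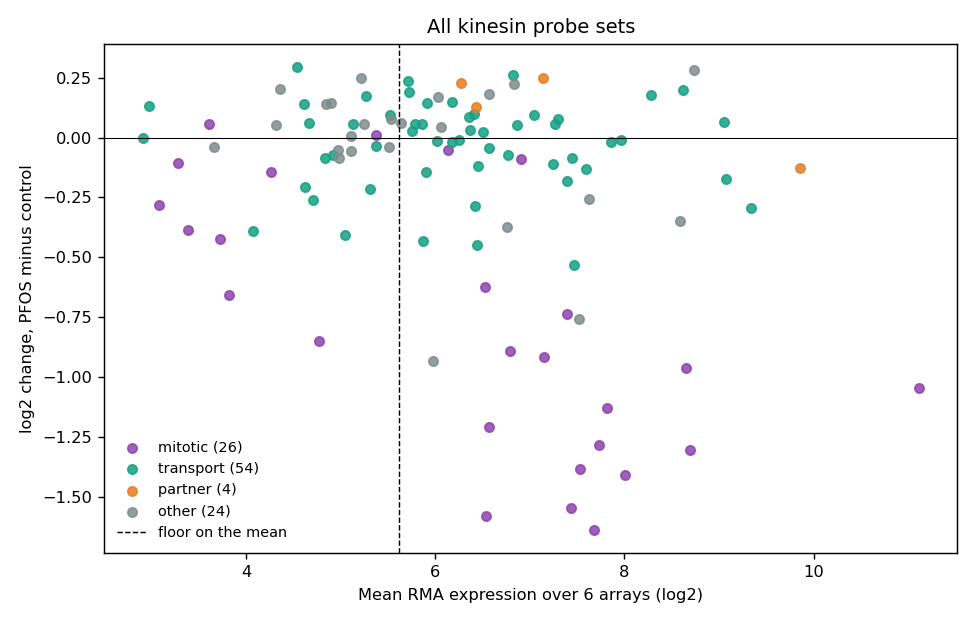
Log2 change (PFOS minus control) against mean RMA expression (log2) over 6 arrays for all 108 kinesin probe sets, coloured by list, with the floor of 5.62 as a dashed line. Past the floor, 16 of 17 mitotic probe sets were called lower, while transport probe sets lie on both sides of 0.

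Transport kinesins moved little and in both directions. Kif5b is the heavy chain of kinesin-1 found in most cells, a carrier of mitochondria and vesicles. It stood at 9.14, 9.20 and 9.23 in PFOS spleens, against 9.44, 9.51 and 9.51 in control spleens. The groups did not overlap, and the change was -0.30 ± 0.03 (limma adjusted p = 0.000154), but 0.18 when arrays were scaled on the labelling spikes. Those spikes averaged 5.79 to 5.84 on PFOS arrays, below the median probe set there (6.16 to 6.18), and 6.29 on control arrays. Whether they were added to the samples is unclear, so scaling on them cannot settle a direction, here or below. Of the 6 Kif5b probe sets, 4 were called lower, by 0.17 to 0.53, and 2 not called. Kif5a, the neuronal kinesin-1, had 6.35, 6.33 and 6.52 in PFOS spleens, against 6.50, 6.62 and 6.43 in control spleens. Its groups overlapped, with a change of -0.12 (limma adjusted p = 0.139). The Kif5a probe sets under the floor changed the other way, by 0.29 and 0.13. Kif5c, the remaining heavy chain, lay under the floor in all 4 of its probe sets.

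Kinesin-2 motors carry cargo into cilia and along axons, and their members differed. Kif3a, the common motor subunit, measured 6.18, 6.24 and 6.23 in PFOS spleens, against 6.57, 6.78 and 6.65 in control spleens. Its change was -0.45 ± 0.05 without overlap (limma adjusted p = 0.000188), but 0.03 with scaling on the labelling spikes. Of its 4 probe sets, 3 were called lower and 1 was not called. Kif3b, the usual partner of Kif3a, changed by 0.06 ± 0.04 (limma adjusted p = 0.235), with 1 of its 4 probe sets called higher. Kif3c, an alternative partner of Kif3a known from neurons, gave 8.37, 8.36 and 8.39 in PFOS spleens, against 8.20, 8.16 and 8.22 in control spleens. All PFOS arrays were above all control arrays, by 0.18 ± 0.03 (limma adjusted p = 0.000637). Kif17, a homodimeric motor of this family, changed by 0.05 ± 0.06 (limma adjusted p = 0.487). Of its 2 probe sets past the floor, 1 was called higher, by 0.19, while the probe set under the floor changed by -0.26. Kifap3, the subunit that joins kinesin-2 to cargo, had 7.19, 7.41 and 7.19 in PFOS spleens, against 6.94, 7.06 and 7.05 in control spleens. Its groups did not overlap, and it rose by 0.25 ± 0.06 (limma adjusted p = 0.0107), which misses the stricter threshold of 0.01.

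Kinesin-3 motors carry vesicles and endosomes. Kif1b, known for mitochondria and synaptic vesicle precursors, gave 8.72, 8.75 and 8.70 in PFOS spleens, against 8.58, 8.46 and 8.53 in control spleens. This brightest probe set rose by 0.20 ± 0.04 without overlap (limma adjusted p = 0.00166), but 2 of the other 5 past the floor were called lower, by 0.13 and 0.18, and the mean over probe sets changed by -0.03 (limma adjusted p = 0.24). The direction of Kif1b therefore differs between its probe sets. Kif16b, a motor of early endosomes, gave 7.06, 6.82 and 6.99 in PFOS spleens, against 6.70, 6.71 and 6.68 in control spleens. It rose by 0.26 ± 0.06 without overlap (limma adjusted p = 0.00551). Its other probe sets lay under the floor and differed in direction, with changes of 0.17 and -0.41. Kif1a, the motor of synaptic vesicle precursors, had 6.39, 6.38 and 6.42 in PFOS spleens, against 6.25, 6.37 and 6.31 in control spleens, which did not overlap but did not pass the test (limma adjusted p = 0.0673). Kif13a, a motor of recycling endosomes, stood at 7.34, 7.30 and 7.39 in PFOS spleens, against 7.33, 7.25 and 7.21 in control spleens, with overlap (limma adjusted p = 0.114). Of the 3 Kif13a probe sets past the floor, 1 was called higher, by 0.14, and 2 were not called. The remaining transport genes, Kifc2, Kifc3, Kif13b and Kif1c, changed by -0.07 to 0.10 and were not called. The other Kifc2 probe set was called higher, by 0.15. The Kif13b probe sets under the floor changed by -0.39 and 0.06.

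**Figure D4:**
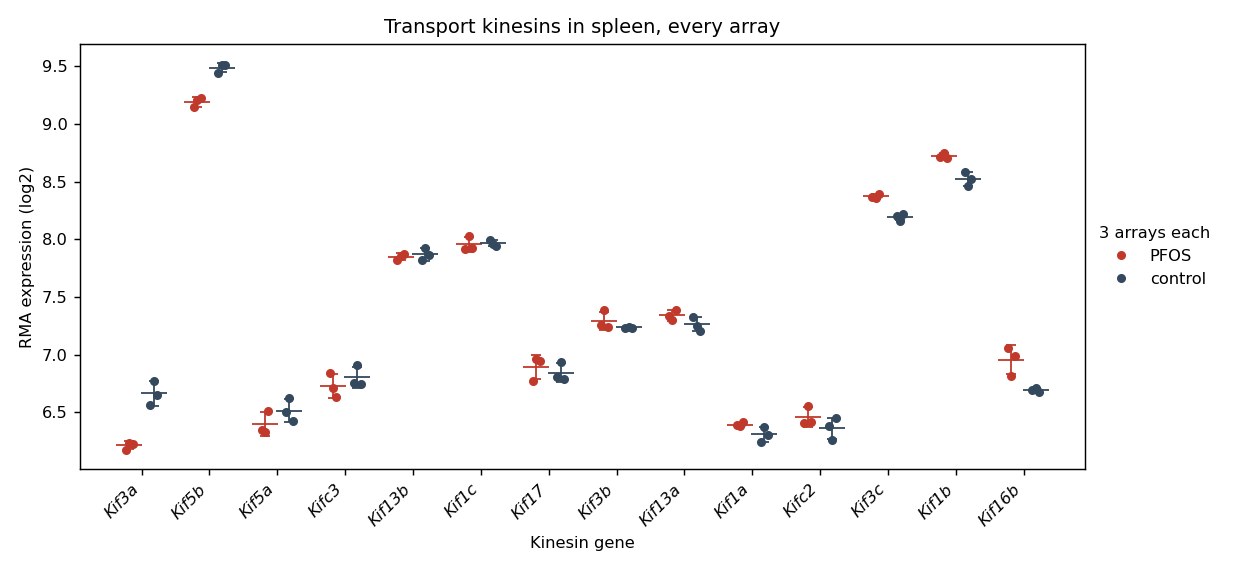
RMA expression (log2) of the 14 tested transport kinesins on every array, PFOS spleens left of control spleens for each gene; points are arrays, and bars give the mean and SD of 3. In the deposited values Kif3a and Kif5b are lower in PFOS and Kif3c, Kif1b and Kif16b higher. With scaling on the labelling spikes, which lie not far above the floor, the changes of Kif3a and Kif5b are 0.03 and 0.18.

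Averaged over genes, the 2 lists separated the groups differently. The mean over the 11 mitotic genes was 7.20 to 7.24 on the PFOS arrays and 8.32 to 8.35 on the control arrays. Over the 14 transport genes it was 7.33 to 7.35 on the PFOS arrays and 7.33 to 7.37 on the control arrays. The mitotic mean minus the transport mean thus lay between -0.15 and -0.08 on the PFOS arrays and between 0.96 and 1.03 on the control arrays.

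**Figure D5:**
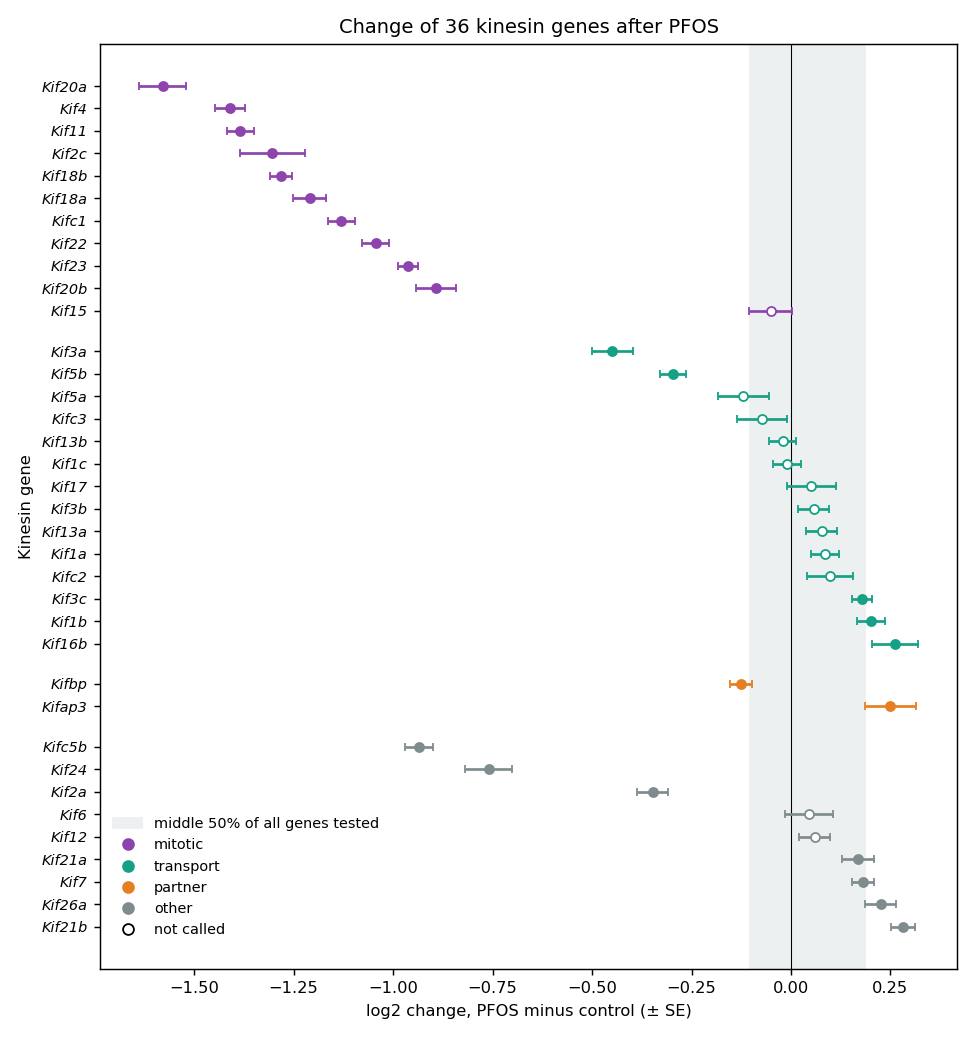
Log2 change (PFOS minus control) with its SE for the 36 tested kinesin genes, by list; filled points were called at a limma adjusted p under 0.05 and open points were not, and the grey band holds the middle 50% of all genes tested (-0.10 to 0.19). Of the mitotic genes, 10 lie between -1.58 and -0.89. Scaling on the labelling spikes, which lie not far above the floor, turns the lower calls of Kif3a, Kif5b, Kif2a and Kifbp to changes above 0.

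Outside both lists, 9 genes of other roles and both kinesin-binding proteins were tested. Kifc5b, whose symbol marks it as a relative of Kifc1, had 5.49, 5.48 and 5.57 in PFOS spleens, against 6.46, 6.40 and 6.48 in control spleens. It changed by -0.93 ± 0.04 (limma adjusted p = 5.49e-07), but its PFOS mean of 5.51 lies under the floor, so it could pass only as a fall. Probes of Kifc1 and Kifc5b may share transcripts, and which gene the signal comes from is uncertain. Kif24 is a centriolar kinesin that holds back cilia in cycling cells. It gave 7.14, 7.20 and 7.09 in PFOS spleens, against 7.77, 7.99 and 7.93 in control spleens, a change of -0.76 ± 0.06 without overlap (limma adjusted p = 2.41e-05). Kif2a, a depolymerase of spindle poles that neurons also use, gave 8.48, 8.37 and 8.40 in PFOS spleens, against 8.82, 8.73 and 8.75 in control spleens. Its groups did not overlap, and the change was -0.35 ± 0.04 (limma adjusted p = 0.000147), but 0.13 with scaling on the labelling spikes.

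Rises among the other roles were small. Kif21b, a kinesin-4 that limits microtubule growth in neurons and T cells, had 8.83, 8.89 and 8.91 in PFOS spleens, against 8.58, 8.57 and 8.62 in control spleens. All PFOS arrays were higher, by 0.28 ± 0.03 (limma adjusted p = 0.000125). Kif7, which acts in Hedgehog signalling at the tip of the cilium, gave 6.66, 6.67 and 6.64 in PFOS spleens, against 6.44, 6.48 and 6.52 in control spleens (change 0.18 ± 0.03, limma adjusted p = 0.000854). Kif26a, a kinesin without ATPase activity, gave 6.92, 6.995 and 6.93 in PFOS spleens, against 6.67, 6.71 and 6.79 in control spleens (change 0.23 ± 0.04, limma adjusted p = 0.00138). Neither gene overlapped between the groups. Kif21a rose by 0.17 ± 0.04 (limma adjusted p = 0.00745), a call lost with scaling on ribosomal protein genes (limma adjusted p = 0.053), and Kif6 and Kif12 were not called. Kifbp, which binds the motor domain of several kinesins, changed by -0.13 ± 0.03 (limma adjusted p = 0.00504), but by 0.35 with scaling on the labelling spikes, and its second probe set was higher by 0.23. Kif9, Kif26b, Kif27 and Kif28 had no probe set past the floor.

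Most genes that work with the mitotic kinesins were lower too. Of 28 tested partners, 25 were called lower, 2 higher and 1 was not called, beside 26% of all genes lower and 40.6% higher, with a median log2 change of -1.34 (all genes 0.05). The 4 with the smallest p were the cyclin Ccnb2 (-1.87 ± 0.03), Prc1 (-1.67 ± 0.03), which bundles the central spindle microtubules on which Kif4 acts, the kinase Cdk1 (-1.42 ± 0.02) and the checkpoint kinase Bub1 (-1.75 ± 0.03). For Prc1 the values were 8.18, 8.16 and 8.17 in PFOS spleens, against 9.87, 9.85 and 9.80 in control spleens. The 2 higher were the abscission protein Cep55 (0.35) and the spindle pole protein Numa1 (0.16), and Cit, the citron kinase, was not called (-0.05); these 3 are named after their values were seen.

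Counts for the genes around the transport kinesins lay nearer to those of all genes. Of 22 tested cargo adaptors, 10 were called higher, 4 lower and 8 not called (median 0.11), shares near the 40.6% higher and 26% lower of all genes. The largest change in this list was that of Trak2, which couples kinesin-1 to mitochondria. Trak2 had 9.17, 9.03 and 9.05 in PFOS spleens, against 10.44, 10.38 and 10.39 in control spleens, a change of -1.32 ± 0.04 or 2.50-fold lower (limma adjusted p = 2.4e-07). The others with the smallest p were Map7d1, which recruits kinesin-1 to microtubules (0.46 ± 0.03), the Rab exchange factor Dennd4a (-0.68 ± 0.05) and the adaptor Hook1 (0.26 ± 0.03). Whether Dennd4a itself joins cargo to a transport kinesin was not tested. Dynein and dynactin, which carry cargo the opposite way, had 6 of 19 genes called higher, 6 lower and 7 not called (median -0.03), again near the 40.6% and 26% of all genes. Of these, the dynein light chain Dynll1 changed by -0.39 ± 0.02, the dynein regulator Nde1 by -0.68 ± 0.05, and the dynactin subunits Dctn3 and Dctn6 by -0.24 ± 0.03 and 0.28 ± 0.03.

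Tubulins, the track itself, had 1 of 13 genes called higher, 7 lower and 5 not called (median -0.08), beside 40.6% of all genes higher and 26% lower. Tubb4b changed by -1.06 ± 0.03, Tuba4a by -0.66 ± 0.02, the microtubule-nucleating Tubg1 by -0.44 ± 0.03 and Tubb5 by -0.32 ± 0.03. Intraflagellar transport genes, cargo of kinesin-2, had 10 of 19 called higher, 5 lower and 4 not called (median 0.16), not far from the 40.6% and 26% of all genes. Hspb11 rose by 0.39 ± 0.03, Cluap1 by 0.22 ± 0.02 and Ift22 by 0.22 ± 0.03, while Ift57 fell by 0.25.

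Markers of several cell types moved in the same arrays, where 26% of all genes were called lower and 40.6% higher. All 11 tested genes of dividing cells were lower (median -1.38), with a mean level of 10.15 to 10.17 on the PFOS arrays and 11.50 to 11.52 on the control arrays. All 14 tested red cell precursor genes were lower too (median -1.63), at 9.72 to 9.73 on the PFOS arrays and 11.29 to 11.31 on the control arrays. Called higher, beside 40.6% of all genes, were 9 of 9 T cell genes (median 0.62), 8 of 9 B cell genes (median 0.48), 8 of 10 genes of red pulp macrophages (median 0.35) and 7 of 8 plasma cell genes (median 0.25). Of 9 neutrophil genes 7 were called lower and 1 higher (median -0.74), and of 6 megakaryocyte and platelet genes 2 were called lower and 3 higher (median 0.02). All 9 tested liver genes were lower (median -3.73). Their mean was 5.19 to 5.27 on the PFOS arrays and 8.77 to 8.80 on the control arrays. Of these genes 6 had PFOS means under the floor, so they could pass only as falls. The part of these cell types in the kinesin changes was not tested.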

How the data were processed

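The deposited values are log2 expression made by the authors with RMA, per the submitters' processing notes; its version and any filter: not given in the sources used here. Trizol RNA was made into biotin-labelled cRNA, per the labels' protocols. Scanner intensities were not analysed here. RMA equalizes arrays, so a change is relative to the array's distribution. Genes were named from the platform annotation; 1 Kif probe set with a second symbol was left out, and all 43 kinesin genes matched the gene table of GRCm38.p6 with 0 symbols changed.

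Probe sets with 1 symbol and a mean over the 6 arrays at or above the 40th percentile of non-control probe sets (5.62) were kept, and the one with the highest mean stood for its gene. The difference PFOS minus control was fitted by limma 3.58.1 (lmFit and eBayes, R 4.3.3); two-sided p-values were adjusted by Benjamini-Hochberg over 13101 genes, with calls under 0.05. A second fit covered all 22434 probe sets past the floor, of which 63.9% were called, and another all 34945 without a floor. The procedure was tested on simulated data. Errors of changes are standard errors (SE), and the number of arrays limits the precision.

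The members, gene lists and motifs were chosen with earlier results of these data known, so counts and medians over a list are descriptions. Values on every array are given for all tested mitotic genes and for the 8 transport and 6 other or partner genes with the smallest p, and changes for the 4 smallest p of each pathway list. Kifap3 and the cell type markers named were added after values were seen. Alternatives covered the replicate block, floor, scaling, variance prior, array weights, probe set choice, threshold, list membership and leaving out each array.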

Additional observations from a re-analysis of the deposited data

How the results depend on the processing

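The 10 mitotic calls kept direction and call under every alternative in which the gene was tested, and 7 to 12 genes of the list were called lower, 12 when Cenpe and Kif2a were added and 7 without the probe set suffixes named below. With arrays scaled on the labelling spikes, probe sets for bacterial transcripts, which averaged 5.79 to 5.84 on the PFOS and 6.29 on the control arrays, not far above the floor of 5.62, the median change of all genes was 0.53, 93.8% of called genes were higher (61.0% as reported; 43.1% with scaling on ribosomal protein genes) and 21496 probe sets were called. There the mitotic median was -0.73, the transport median 0.53 and 13 of the 14 transport genes tested were called higher. This scaling adds 1 constant to every change, and the mitotic median stayed 1.26 below that of all genes. It turned Kif13b (0.46), Kif15 (0.42), Kif1c (0.47), Kif2a (0.13), Kif3a (0.027), Kif5a (0.36), Kif5b (0.18), Kifbp (0.35) and Kifc3 (0.40). Whether labelling spikes were added is unclear, so these turns do not settle the direction of any gene. Scaling on ribosomal protein genes gave medians of -1.28 (mitotic) and -0.018 (transport). The mean over probe sets gave a mitotic median of -1.14 and 5 transport genes called higher, and turned Kif1b (-0.035) and Kifbp (0.050). The mitotic median was -1.13 without a floor and -1.09 when probe sets with the suffixes _s_at, _x_at or _a_at were dropped. Adding Kif21a and Kif21b to the transport list gave 5 called higher. Leaving out each array in turn gave mitotic medians of -1.23 to -1.17, transport medians of 0.014 to 0.078, and 3 to 4 of the 14 transport genes called higher. The mitotic median minus the transport median lay between -1.30 and -1.14 over 19 settings. Settings that add 1 constant to every change or alter only the test cannot move this difference. With the replicate block, 9050 genes were called (8730 without it) and no kinesin call changed. The correlations of deviations for replicates 1, 2 and 3 were 0.32, 0.14 and 0.10, and those of unlike numbers ran from -0.23 to 0.13. Every unlike pair with a replicate 1 was negative (-0.23 to -0.18), while PFOS replicate 3 correlated better with control replicate 2 (0.11) than with its own number. The numbers were not taken as pairs, and whether replicate 1 shares an effect across groups was not tested. The cause of the shifts between settings was not tested. Values near the floor limit the sizes for Kif15, Kif18a, Kif20a and Kifc5b.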
